A study of Saccharomyces cerevisiae with 24 samples.

Results

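The 40 genes described here encode enzymes that make histidine, tryptophan and the other aromatic amino acids, lysine, leucine, isoleucine, valine, threonine and homoserine in Saccharomyces cerevisiae. They were chosen by standard name and matched by locus tag to 40 of the 7032 features of the count table, and arginine and methionine synthesis were left out. The libraries came from elutriated G1 cells of wild-type diploid BY4743, grown in the rich medium YPD and allowed to grow to a set size before they were quenched with cycloheximide and azide. Cells of similar size from many elutriated cultures were pooled, and rRNA-depleted total RNA of each pool was sequenced. The 24 pools of 39.1 to 75.9 fL fell into 8 sizes of 3 libraries each, namely 40, 45, 50, 55, 60, 65, 70 and 75 fL, with the pool of 67.5 fL in the 70 fL group. BY4743 is known to carry deletions of URA3 and LEU2 and a partial deletion of HIS3 on both chromosome copies, and to lack LYS2 on a single copy, so every group here lacks a complete leucine and histidine pathway of its own. Size cannot be told apart from time in culture after elutriation, from cell cycle stage, or from the set of cultures that went into each pool. Summed markers of S phase and mitosis, given below, were higher at 75 fL than at 40 fL, so the larger cells cannot be taken to be in G1 alone.

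Yeast makes these amino acids from glycolytic, pentose phosphate and citric acid cycle intermediates, and most of the enzymes are encoded by genes that the transcription factor Gcn4 activates when amino acids are scarce. Pathway-specific factors act beside it: Leu3 on leucine and branched-chain genes, Lys14 on lysine genes, and Aro80 on genes for breakdown of aromatic amino acids. Several steps are shared by paralogous enzymes that differ in feedback inhibition or in the compartment where they work. In rich medium cells can also take amino acids up, and Ehrlich-pathway enzymes then convert aromatic and branched-chain amino acids to alcohols.

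Short motifs known for these factors were looked up on both strands of the 300 bases before each start codon in the R64 genome. The Gcn4 core TGACTC was present before 23 of the 40 genes (57.5%), against 7.92% of 5810 protein-coding genes tested. It stood before 5 of 6 histidine genes, 3 of 5 tryptophan genes, 1 of 7 shikimate and aromatic genes, 3 of 7 lysine genes, 2 of 3 leucine genes, 5 of 7 isoleucine and valine genes, and 4 of 5 threonine and homoserine genes. The following sites belong to genes whose levels changed with size, and are read along the coding strand with the core, or its reverse complement GAGTCA, in capitals.
HIS4, chrIII:68571-68600, minus strand: aggcagtcgaacTGACTCtaatagtgactc
HIS4, chrIII:68515-68544, minus strand: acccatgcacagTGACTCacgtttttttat
HIS5, chrIX:142714-142743, plus strand: tcttggatctgtTGACTCacttcaattgat
HIS7, chrII:716678-716707, minus strand: caaaaaaaaattGAGTCAtatcgtagcttt
TRP3, chrXI:38259-38288, minus strand: tcaatggctcgtTGACTCattctaatctat
LYS12, chrIX:187773-187802, minus strand: atattcttaagaTGACTCtaattagaggaa
LEU4, chrXIV:426838-426867, minus strand: cttacgtgtaagTGACTCagttctttcaaa
HOM2, chrIV:770161-770190, plus strand: tcaagcattgatTGACTCattttcctctga
The lower-case tgactc at the end of the first HIS4 line is a further core, and HIS7 held another that is not shown. These matches are letters in a window, and binding was not measured.

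The pathway-specific letters were rarer. The Leu3 motif, CCGG and CCGG with 2 bases of any kind between them, stood before LEU1 and BAT1 (5% of the 40 genes, against 0.138% of the 5810). The Lys14 motif, read as TCCANCGGA, TCCANTGGA, TCCGNCGGA or TCCGNTGGA, stood before LYS1 and at a pair of places before LYS9 (5%, against 0.878%). The Aro80 motif, CCG and CCG with 7 bases of any kind between them, stood at 5 places before ARO9, some of which overlap, and also before LYS1 and LEU1, close to the Lys14 and Leu3 matches but sharing no motif letters with them (7.5%, against 2.79%). The motif letters are in capitals in these sites, which are shown because ARO9 and LYS9 are among the genes that moved most.
ARO9, chrVIII:375470-375498, plus strand: tactattgCCGCCGACGGCCGtagataat
ARO9, chrVIII:375546-375574, plus strand: gatgcttaCCGAGATTTGCCGcggataac
LYS9, chrXIV:715595-715623, minus strand: gaatcgaaatTCCGTTGGAaaaattcgct
LYS9, chrXIV:715533-715561, minus strand: attgagaattTCCAATGGAattatcagca
LYS1, chrIX:420914-420942, minus strand: atttttttttTCCAGCGGAatttggaatt
LEU1, chrVII:478850-478879, minus strand: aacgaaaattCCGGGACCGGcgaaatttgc
BAT1, chrVIII:517375-517404, plus strand: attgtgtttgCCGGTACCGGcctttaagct

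Library totals ran from 16103753 to 24408547 counts, and all 40 genes passed the filter on low counts, with 244 to 36486 counts in every library. Values are CPM, each count over the library total with TMM scaling, which are relative levels and not amounts per cell. The TMM factor was 1.16 to 1.17 in the smallest cells and 0.929 to 1.04 in all larger ones. Replicates of a size are separate pools; replicate 1 of 40 and of 70 fL, replicate 2 of 50 and of 55 fL and replicate 3 of 45 fL lay at least 1.4 times as far from their replicates as those lay from each other. The marker values that follow are CPM over library totals without TMM scaling, unlike the other CPM values given here. The 14 haploid markers, all detected, summed to 153 to 155 CPM in the 75 fL libraries and 247 to 270.2 CPM in the 40 fL libraries, and the 10 meiosis markers, all detected, to 80.8 to 87.2 CPM at 75 fL and 186 to 205 CPM at 40 fL. At 45 and 50 fL the haploid markers summed to 165 to 176 CPM and 146 to 161 CPM, and the meiosis markers to 125 to 148 CPM and 91.1 to 120.0 CPM. The 8 markers of S phase and mitosis, all detected, summed to 2702 to 3345 CPM at 75 fL and 374 to 476 CPM at 40 fL, with 858 to 2082 CPM at 45 fL and 763 to 2903 CPM at 50 fL. At 60 fL the haploid, meiosis and S phase lists summed to 134 to 139, 76.6 to 78.2 and 4231 to 4296 CPM. Not every haploid marker moved with its sum. FAR1, RME1 and STE18 averaged 46.8, 14.4 and 3.51 CPM at 75 fL and 14.1, 10.9 and 3.21 CPM at 40 fL. Among meiosis markers SPS1 averaged 6.09 CPM at 75 fL and 61.3 CPM at 40 fL, while SPO11 averaged 3.85 and 3.87 CPM. The S phase and mitosis sum was lower at 75 fL than at 60 fL, but its members went apart. RNR1 averaged 2516 CPM at 60 fL and 1100 CPM at 75 fL, and CLN2, HTA1 and HTB1 were also lower at 75 fL. CLB2, CDC5, CHS2 and SWI5 were higher, with 77.9, 124, 60.1 and 78.2 CPM at 60 fL and 208, 269, 180 and 187 CPM at 75 fL. The sums of each list did not overlap between the sizes of any pair compared here (75, 50 and 45 fL against 40 fL, 60 against 50 fL, 75 against 60 fL), and their part in the results was not tested. URA3 and LEU2 had 0 counts in all 24 libraries. In pooled cells, fewer cells with a transcript and less of it per cell cannot be told apart.

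Together the 40 genes took 1.32% ± 0.0804 of all counts at 40 fL, 1.26% ± 0.0296 at 45 fL, 1.14% ± 0.0706 at 50 fL, 1.18% ± 0.0541 at 55 fL, 1.24% ± 0.0249 at 60 fL, 1.23% ± 0.0237 at 65 fL, 1.21% ± 0.0968 at 70 fL and 1.26% ± 0.0106 at 75 fL (SD, n = 3 each). Of these unscaled shares that of 40 fL was the highest mean and that of 50 fL the lowest, but the order depended on the scaling. The TMM-scaled value, which is not a share of a library, was 1.14% ± 0.0771 at 40 fL, the lowest of the 8 means. It was 1.17% ± 0.0868 at 50 fL and 1.31% ± 0.0435 at 75 fL, the highest. A gene was counted as changed at a Benjamini-Hochberg adjusted p under 0.05 over the 6402 genes tested, by edgeR's quasi-likelihood test on all 24 libraries. Across the 8 sizes together, 33 of the 40 genes differed, against 79.6% of all genes tested. The genes that did not pass were TRP5, ARO8, LYS21, ILV2, ILV3, ILV6 and THR1. Without the libraries that stood apart 39 of the 40 passed, but the share of all genes was not counted there, so this has no background. Leaving these libraries out also raised the calls among all genes. For 45 fL against 40 fL they went from 11.6% higher and 2.84% lower to 20.7% and 20.7%.

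Between the ends of the series, 75 fL against 40 fL, 19 genes were higher (47.5%, against 31.0% of all genes tested) and 6 were lower (15%, against 30.2%). The median log2 change of the 40 genes was 0.16, beside -0.01 for all genes. The split depended on the scaling. With library totals in place of TMM, 10 of the 40 genes were higher and 14 lower, where 19.1% and 45.9% of all genes were. With TPM plus 1, 8 were higher and 19 lower, where 14.6% and 55% of all genes were. The median of all genes moved to -0.28 with library totals and -0.42 with TPM plus 1, and that of the 40 genes to -0.11 and -0.27. Under both, the 40 genes were still more often higher and less often lower than all genes, a difference that was not tested. Under each of the 5 other scalings tried, HIS4, HIS5, HIS7, ARO9, LYS9, LYS12, HOM2 and HOM6 were higher, and TRP1, ARO3, ARO7, LYS20, LEU4 and BAT2 were lower. The other rises did not pass under at least 1 of them. Leaving out the libraries that stood apart left 19 higher (34.8% of all genes were) and made 10 lower (34.6% of all genes), the added ones being LYS4, LEU9, ILV2 and ILV3. With TMM scaling, 14 of the 23 genes with a Gcn4 core were higher and 1 lower, with a median of 0.31, where 31.0% and 30.2% of all genes tested were. Of the 17 genes without it 5 were higher and 5 lower, with a median of 0.04, and the difference between these sets was not tested. This split also depended on the scaling. With TPM plus 1, the genes with a core that were higher were HIS4, HIS5, HIS7, LYS12 and HOM2. Those lower were HIS6, LYS1, LEU4, LEU9, ILV1, ILV3 and HOM3.

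**Figure D1:**
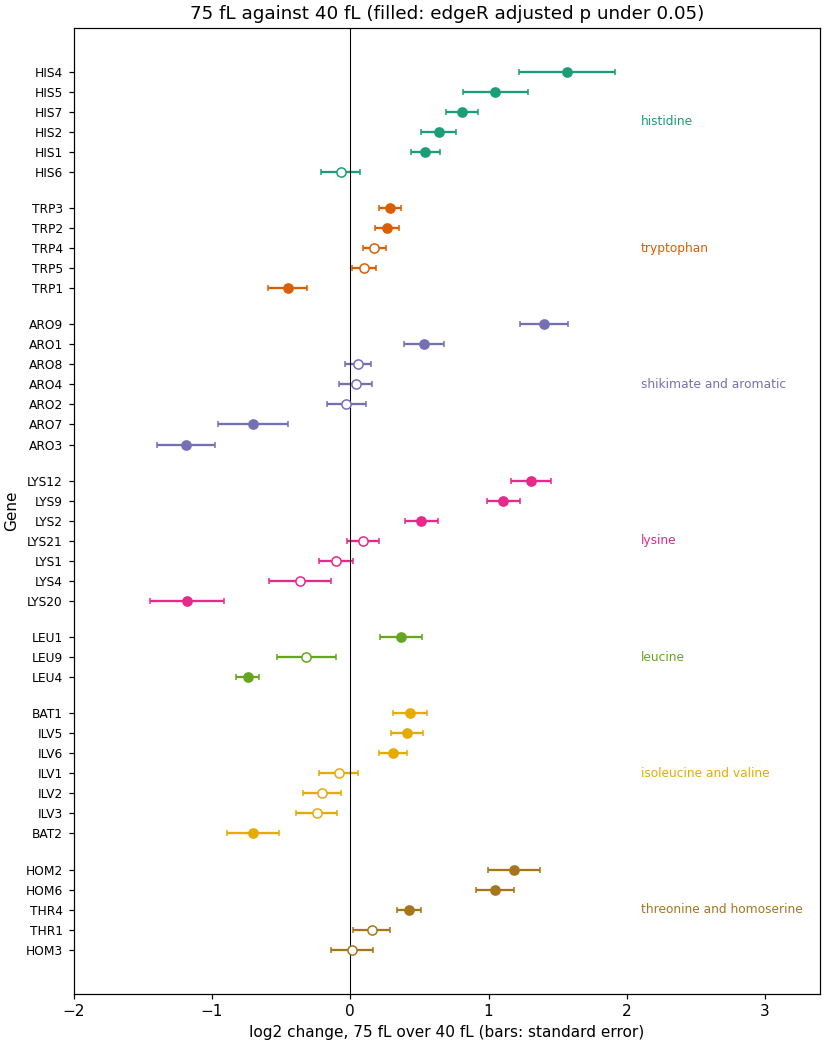
Log2 change (75 fL over 40 fL, edgeR with TMM scaling) of each of the 40 genes, grouped by pathway, with bars for the SE and filled points for an adjusted p under 0.05. HIS4 is the highest at 1.57 and ARO3 the lowest at -1.19. Under TPM the points of TRP2, TRP3, LEU1, ILV5, ILV6 and THR4, filled above 0 here, lie below 0.

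Most histidine genes were higher in the largest cells than at 40 fL with TMM scaling. At 75 fL, 5 of the 6 genes rose (83.3%, against 31.0% of all genes tested), and HIS6 did not pass. The median log2 change of the 6 was 0.72. The counts at 75 fL for each pathway below stand beside the same shares of all genes, 31.0% higher and 30.2% lower. HIS4 (gene at chrIII:65934-68333 in R64) encodes a single protein that catalyses several separate steps of the pathway, and it had the widest change of the 40 genes between these sizes. HIS4 had 274, 257 and 204 CPM at 40 fL, 352, 284 and 145 at 45 fL, 532, 286 and 503 at 50 fL and 303, 721 and 426 at 55 fL. The HIS4 values were then 593, 595 and 608 CPM at 60 fL, 748, 609 and 809 at 65 fL, 463, 937 and 869 at 70 fL and 588, 963 and 627 at 75 fL. All 3 libraries of 75 fL lay above the 3 of 40 fL, while the SD between replicates was 102 to 256 CPM at all sizes except 40 and 60 fL. HIS4 averaged 726 ± 206 CPM at 75 fL and 245 ± 36.3 CPM at 40 fL (SD, n = 3 each), a log2 change of 1.57 ± 0.35 (SE, adjusted p = 0.000908). HIS5 (gene at chrIX:142928-144085) encodes histidinol-phosphate aminotransferase, a late step. HIS5 had 60.2, 57.0 and 52.1 CPM at 40 fL, 47.3, 55.1 and 34.8 at 45 fL, 69.0, 41.4 and 77.1 at 50 fL and 51.9, 81.7 and 52.2 at 55 fL. The HIS5 values were then 85.7, 86.4 and 85.7 CPM at 60 fL, 91.7, 84.6 and 86.1 at 65 fL, 57.5, 106 and 98.6 at 70 fL and 113, 131 and 106 at 75 fL. Every 75 fL library lay above every library of 40 to 65 fL, and the lowest values were at 45 and 50 fL. HIS5 averaged 117 ± 13.1 CPM at 75 fL and 56.4 ± 4.10 CPM at 40 fL, a log2 change of 1.05 ± 0.23 (SE, adjusted p = 0.000955). With TPM the rises of HIS1 and HIS2 did not pass, and HIS6 was lower (-0.49, adjusted p = 0.0116 with TPM plus 1 in limma).

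HIS1, which encodes the feedback-inhibited ATP phosphoribosyltransferase of the entry step, dipped before it rose. It averaged 221 ± 9.79 CPM at 40 fL, 179 ± 3.66 at 45 fL, 184 ± 6.09 at 50 fL, 239.8 ± 5.05 at 60 fL and 322 ± 28.7 at 75 fL (SD, n = 3 each). HIS1 was lower at 50 fL than at 40 fL, with a log2 change of -0.27 ± 0.10 (SE, adjusted p = 0.0364), a call that each of 5 libraries of these sizes ended when left out. It was higher at 60 fL than at 50 fL by 0.38 ± 0.10 (SE, adjusted p = 0.0337), a call also lost without any 1 of 5 libraries of these sizes, and higher at 75 fL than at 60 fL by 0.43 ± 0.10 (SE, adjusted p = 0.0234). HIS7, encoding imidazole glycerol-phosphate synthase, changed by 0.81 ± 0.12 (SE, adjusted p = 1.53e-05) between 75 and 40 fL, and HIS2, encoding histidinol phosphatase, by 0.64 ± 0.13 (SE, adjusted p = 0.000315). HIS6, encoding the isomerase of an early step, averaged 17.7 ± 1.44 CPM at 50 fL and 24.7 ± 1.66 CPM at 40 fL and fell there, with a log2 change of -0.48 ± 0.14 (SE, adjusted p = 0.00924). HIS3, the gene partly deleted in the strain, had 45.2 ± 3.73 CPM at 75 fL and 32.5 ± 3.18 CPM at 40 fL, a log2 change of 0.47 ± 0.19 (SE, adjusted p = 0.038), which was 0.20 (adjusted p = 0.335) with library totals and 0.04 (adjusted p = 0.843) with TPM plus 1.

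**Figure D2:**
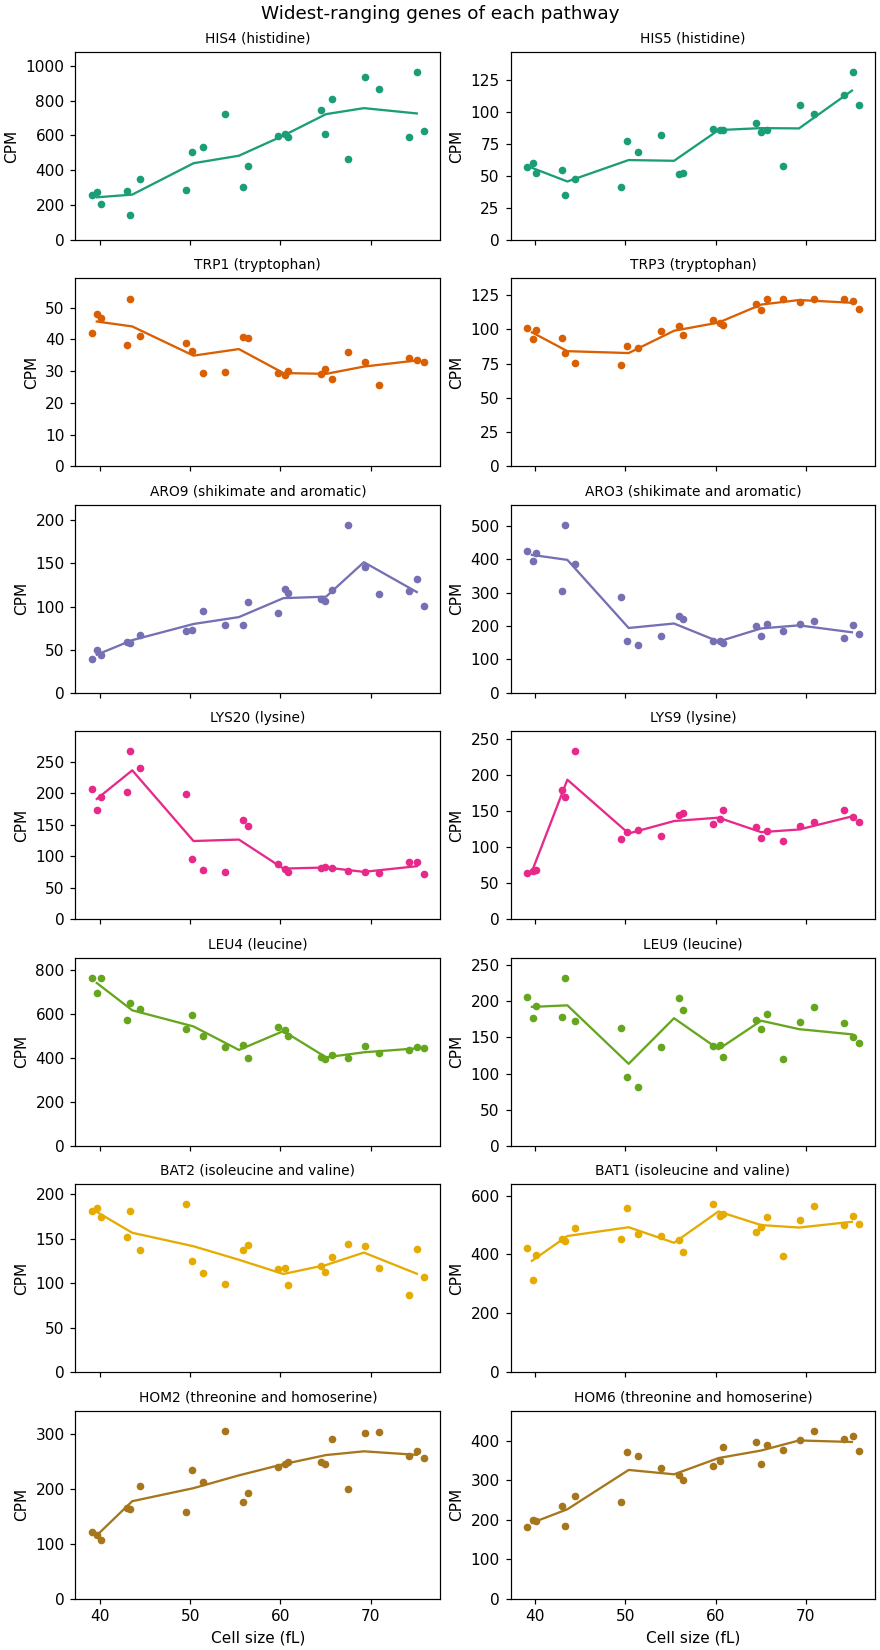
CPM with TMM scaling of the 2 genes of each pathway with the widest range of group means, against the measured cell size in fL; each point is 1 library and the line joins the group means. HIS4 lies between 588 and 963 CPM at 75 fL and between 204 and 274 CPM at 40 fL, and LYS9 peaks at 45 fL.

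Log2 changes of the tryptophan genes lay between -0.45 and 0.29 for 75 fL against 40 fL. Between these sizes TRP2 and TRP3 rose, TRP1 fell, and TRP4 and TRP5 did not pass, with a median of 0.17; under TPM the changes of TRP2, TRP3, TRP4 and TRP5 were below 0. TRP3 (gene at chrXI:36699-38153) encodes a subunit of anthranilate synthase that also carries indole glycerol-phosphate synthase. TRP3 had 92.9, 101 and 99.8 CPM at 40 fL, 75.7, 93.9 and 83.0 at 45 fL, 86.1, 74.2 and 88.0 at 50 fL and 102, 99.0 and 96.0 at 55 fL. The TRP3 values were then 104, 107 and 105 CPM at 60 fL, 118, 114 and 122 at 65 fL, 122, 120.4 and 122 at 70 fL and 123, 121 and 115 at 75 fL. The 75 fL libraries lay above the 40 fL ones, and the 50 fL libraries below them. The TRP3 log2 change was 0.29 ± 0.08 (SE, adjusted p = 0.00439) for 75 fL against 40 fL, -0.24 ± 0.08 (SE, adjusted p = 0.0143) for 50 fL against 40 fL and 0.34 ± 0.08 (SE, adjusted p = 0.024) for 60 fL against 50 fL. The call at 50 fL was lost without 40 fL replicate 2 (adjusted p = 0.0531) or 50 fL replicate 2 (0.0705), and that at 60 fL without 50 fL replicate 2 or any 1 library of 60 fL (0.0728 to 0.0885). TRP1 (gene at chrIV:461842-462516), encoding phosphoribosylanthranilate isomerase, ran the other way. TRP1 had 48.0, 42.1 and 46.9 CPM at 40 fL, 41.1, 38.3 and 52.9 at 45 fL, 29.4, 38.9 and 36.4 at 50 fL and 40.9, 29.6 and 40.4 at 55 fL. The TRP1 values were then 30.0, 29.5 and 28.8 CPM at 60 fL, 29.0, 30.8 and 27.7 at 65 fL, 36.0, 32.8 and 25.6 at 70 fL and 34.0, 33.4 and 32.7 at 75 fL. The 75 fL libraries lay below the 40 fL ones without overlap, and TRP1 averaged 33.4 ± 0.649 CPM at 75 fL and 45.6 ± 3.16 CPM at 40 fL, a log2 change of -0.45 ± 0.14 (SE, adjusted p = 0.0101). TRP2, encoding the other subunit of anthranilate synthase, changed by 0.26 ± 0.09 (SE, adjusted p = 0.0144), and the call was lost without 40 fL replicate 1 (adjusted p = 0.0776) or 75 fL replicate 1 (0.0873). TRP4, encoding anthranilate phosphoribosyltransferase, was lower at 50 fL than at 40 fL, with a log2 change of -0.22 ± 0.08 (SE, adjusted p = 0.0348), a call that ended when any library of these sizes except 40 fL replicate 1 was left out (adjusted p = 0.0600 to 0.146). TRP5, encoding tryptophan synthase, kept group means of 436 to 519 CPM.

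Among the shikimate and aromatic genes ARO1 and ARO9 rose at 75 fL, ARO3 and ARO7 fell, and ARO2, ARO4 and ARO8 did not pass; the median was 0.04. ARO9 (gene at chrVIII:375709-377250) encodes the aromatic aminotransferase II, which in rich medium acts in breakdown of aromatic amino acids. ARO9 had 49.6, 39.3 and 43.6 CPM at 40 fL, 66.8, 58.8 and 57.5 at 45 fL, 95.1, 71.2 and 73.1 at 50 fL and 78.9, 79.0 and 105 at 55 fL. The ARO9 values were then 116, 92.8 and 120.2 CPM at 60 fL, 109, 106 and 119 at 65 fL, 194, 145 and 114 at 70 fL and 118, 132 and 100.4 at 75 fL. Each library above 40 fL lay over the 3 at 40 fL, and 70 fL replicate 1 was the highest of all. ARO9 averaged 117 ± 15.7 CPM at 75 fL and 44.2 ± 5.18 CPM at 40 fL, a log2 change of 1.4 ± 0.18 (SE, adjusted p = 4.18e-06). ARO8, encoding the aromatic aminotransferase I used in synthesis, did not pass in the test of all sizes (adjusted p = 0.369). ARO8 had 455, 508 and 552 CPM at 40 fL, 491, 452 and 501 at 45 fL, 429, 453 and 491 at 50 fL and 509, 424 and 517 at 55 fL. The ARO8 values were then 485, 462 and 480.3 CPM at 60 fL, 501, 441 and 508 at 65 fL, 499, 533 and 550.0 at 70 fL and 534, 522 and 518 at 75 fL. The 75 and 40 fL libraries overlapped, and the ARO8 log2 change was 0.06 ± 0.09 (SE, adjusted p = 0.624).

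ARO3 and ARO4 encode the paralogous DAHP synthases of the entry step, with Aro3 inhibited by phenylalanine and Aro4 by tyrosine. ARO3 (gene at chrIV:521816-522928) fell early in the series. ARO3 had 395, 426 and 418 CPM at 40 fL, 387, 304 and 502 at 45 fL, 142, 286 and 155 at 50 fL and 231, 170.2 and 221 at 55 fL. The ARO3 values were then 149.6, 156 and 155 CPM at 60 fL, 201, 171 and 207 at 65 fL, 184, 207 and 216 at 70 fL and 164, 203 and 177 at 75 fL. All libraries of 50 fL and above lay below those of 40 and 45 fL. ARO3 averaged 194 ± 79.6 CPM at 50 fL and 413 ± 16.2 CPM at 40 fL, a log2 change of -1.09 ± 0.21 (SE, adjusted p = 0.000471), and 181 ± 19.9 CPM at 75 fL, a change from 40 fL of -1.19 ± 0.21 (SE, adjusted p = 0.000126). For ARO4 the lowest libraries were those of 50 fL. ARO4 had 324, 338 and 342 CPM at 40 fL, 329, 326 and 357 at 45 fL, 244, 297 and 278 at 50 fL and 426, 332 and 374 at 55 fL. The ARO4 values were then 319, 323 and 312 CPM at 60 fL, 396, 345 and 369 at 65 fL, 304, 432 and 418 at 70 fL and 360.3, 355 and 316 at 75 fL. ARO4 changed by -0.29 ± 0.12 (SE, adjusted p = 0.0411) for 50 fL against 40 fL, a call that leaving out any of 6 single libraries ended (adjusted p = 0.0501 to 0.182), and by 0.04 ± 0.12 (SE, adjusted p = 0.784) for 75 fL against 40 fL, where the libraries overlapped. ARO7, encoding chorismate mutase at the branch to phenylalanine and tyrosine, averaged 58.5 ± 1.64 CPM at 75 fL and 95.1 ± 3.44 CPM at 40 fL, with a log2 change of -0.70 ± 0.25 (SE, adjusted p = 0.0216). That call was lost without 40 fL replicate 3 (adjusted p = 0.0505), 75 fL replicate 2 (0.0552) or 75 fL replicate 3 (0.0533). ARO1, encoding the pentafunctional enzyme of the shikimate pathway, changed by 0.53 ± 0.14 (SE, adjusted p = 0.00356), which was 0.26 (adjusted p = 0.064) with library totals and 0.09 (adjusted p = 0.444) with TPM plus 1. ARO2, encoding chorismate synthase, changed by -0.03 ± 0.14 (SE, adjusted p = 0.872).

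Of the 5 genes higher at 45 fL than at 40 fL, 4 were lysine genes. At 75 fL LYS2, LYS9 and LYS12 were higher, LYS20 was lower, and LYS1, LYS4 and LYS21 did not pass, with a median of 0.09. The difference between 45 and 40 fL was tested after the values had been seen, because LYS9 peaked there. In that comparison 5 of the 40 genes were higher (12.5%, against 11.6% of all genes tested) and 2 were lower (5%, against 2.84%). Those higher were LYS1, LYS2, LYS9, LYS12 and HOM2, and those lower TRP4 and LEU4. Under the 5 other scalings LYS2, LYS9 and LYS12 stayed higher and TRP4 and LEU4 lower. With library totals 4 genes were higher and 6 lower, where 4.92% and 9.15% of all genes were. The HOM2 call was lost when any of 5 single libraries was left out, that of TRP4 with any of 4 and that of LEU4 with any of 7. Without the libraries that stood apart 7 were higher, ARO9 and HOM6 being added, and 12 lower, where 20.7% of all genes were higher and 20.7% lower. LYS9 (gene at chrXIV:714048-715388) encodes the saccharopine dehydrogenase that forms saccharopine. LYS9 had 66.6, 64.1 and 67.9 CPM at 40 fL, 233, 179 and 169 at 45 fL, 124, 111 and 122 at 50 fL and 145, 116 and 147 at 55 fL. The LYS9 values were then 152, 132 and 139 CPM at 60 fL, 127, 113 and 122 at 65 fL, 109, 129.6 and 135 at 70 fL and 152, 141 and 134 at 75 fL. All 45 fL libraries lay above every library of the other sizes, and the 40 fL libraries lay below all others. LYS9 averaged 193 ± 34.4 CPM at 45 fL and 66.2 ± 1.97 CPM at 40 fL, a log2 change of 1.55 ± 0.12 (SE, adjusted p = 5.49e-07); at 75 fL it averaged 143 ± 9.02 CPM, a change from 40 fL of 1.11 ± 0.12 (SE, adjusted p = 1.34e-06). LYS12, encoding homoisocitrate dehydrogenase, averaged 294 ± 22.0 CPM at 75 fL and 247 ± 15.6 at 45 fL, against 119 ± 15.4 at 40 fL. Its log2 change was 1.31 ± 0.15 (SE, adjusted p = 1.62e-06) at 75 fL and 1.05 ± 0.15 (SE, adjusted p = 0.000154) at 45 fL.

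LYS1, encoding the saccharopine dehydrogenase that releases lysine, was higher at 45 fL than at 40 fL by 0.57 ± 0.12 (SE, adjusted p = 0.00472), though not with TPM plus 1 (adjusted p = 0.0813), and averaged 35.7 ± 1.95 CPM at 75 fL, against 38.3 ± 3.33 at 40 fL. LYS2, encoding aminoadipate reductase, changed by 0.67 ± 0.12 (SE, adjusted p = 0.00141) at 45 fL and by 0.51 ± 0.12 (SE, adjusted p = 0.00122) at 75 fL, where the change was 0.24 (adjusted p = 0.0546) with library totals and 0.08 (adjusted p = 0.51) with TPM plus 1. LYS4, encoding homoaconitase, averaged 124 ± 51.9 CPM at 50 fL and 205 ± 9.04 CPM at 40 fL, a log2 change of -0.72 ± 0.22 (SE, adjusted p = 0.0111), and the call was lost without 50 fL replicate 1 (adjusted p = 0.0719) or 50 fL replicate 3 (0.0653). The homocitrate synthases of the entry step are encoded by LYS20 and LYS21, whose genes are 90.4% identical over aligned bases, and 47.1% and 45.7% of their 30-base words occur elsewhere in the genome, so reads may be split between them and each value is uncertain. LYS20 had 173, 206 and 193 CPM at 40 fL, 240.2, 202 and 266 at 45 fL, 77.5, 199 and 95.3 at 50 fL and 157, 75.0 and 147 at 55 fL. The LYS20 values were then 74.9, 87.1 and 79.2 CPM at 60 fL, 82.1, 83.5 and 80.8 at 65 fL, 76.9, 74.7 and 74.0 at 70 fL and 91.4, 90.1 and 71.1 at 75 fL. The LYS20 libraries of 75 fL lay below those of 40 fL, and at 50 fL replicate 2 stood above the others. LYS20 (gene at chrIV:133437-134723) averaged 84.2 ± 11.4 CPM at 75 fL and 191 ± 16.8 CPM at 40 fL, a log2 change of -1.18 ± 0.27 (SE, adjusted p = 0.0012). LYS21 had 172, 185 and 188 CPM at 40 fL, 213, 205 and 239.7 at 45 fL, 171, 170.2 and 192 at 50 fL and 187, 187 and 198 at 55 fL. The LYS21 values were then 186, 192 and 189 CPM at 60 fL, 200.1, 195 and 195 at 65 fL, 133, 193 and 207 at 70 fL and 206, 198 and 177 at 75 fL. The LYS21 libraries of 75 and 40 fL overlapped, with a log2 change of 0.09 ± 0.12 (SE, adjusted p = 0.515).

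Of the leucine genes LEU1 rose at 75 fL, LEU4 fell and LEU9 did not pass, with a median of -0.32. LEU4 (gene at chrXIV:424895-426754) encodes the main isopropylmalate synthase, the leucine-inhibited entry step. LEU4 had 697, 765 and 766 CPM at 40 fL, 626, 575 and 653 at 45 fL, 502, 533 and 599 at 50 fL and 462, 449 and 402 at 55 fL. The LEU4 values were then 499.8, 541 and 529.6 CPM at 60 fL, 404, 394 and 412 at 65 fL, 402, 454 and 424 at 70 fL and 438, 449 and 446 at 75 fL. The 3 libraries at 40 fL were the highest of the 24, and LEU4 averaged 444 ± 5.40 CPM at 75 fL and 743 ± 39.8 CPM at 40 fL, a log2 change of -0.74 ± 0.08 (SE, adjusted p = 1.76e-06). It was already lower at 45 fL, with a change of -0.27 ± 0.08 (SE, adjusted p = 0.0388), and at 50 fL, with -0.45 ± 0.08 (SE, adjusted p = 0.000348). LEU9 encodes the minor, paralogous synthase. LEU9 had 177, 206 and 193 CPM at 40 fL, 173, 178 and 233 at 45 fL, 81.9, 163 and 95.3 at 50 fL and 205, 136 and 188 at 55 fL. The LEU9 values were then 123, 138 and 139 CPM at 60 fL, 175, 162 and 183 at 65 fL, 120.2, 172 and 193 at 70 fL and 169, 151 and 143 at 75 fL. Replicate 2 stood apart at 50 and at 55 fL, and the LEU9 log2 change was -0.76 ± 0.21 (SE, adjusted p = 0.00632) for 50 fL and -0.32 ± 0.21 (SE, adjusted p = 0.204) for 75 fL, each against 40 fL. LEU1, encoding isopropylmalate isomerase, averaged 1127 ± 73.9 CPM at 75 fL, 1291 ± 323 at 50 fL and 874 ± 69.7 at 40 fL. Its log2 change was 0.56 ± 0.15 (SE, adjusted p = 0.00558) for 50 fL against 40 fL and 0.37 ± 0.15 (SE, adjusted p = 0.047) for 75 fL against 40 fL, and leaving out any of 16 libraries ended the call at 75 fL, with an adjusted p of 0.0501 to 0.149 for the 6 libraries of these sizes. With TPM the LEU1 change at 75 fL was -0.07. The LEU1 call at 50 fL was lost without 50 fL replicate 3 (adjusted p = 0.0581), with library totals (0.0655) and with TPM plus 1 (0.343).

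In the isoleucine and valine pathway ILV5, ILV6 and BAT1 rose at 75 fL, BAT2 fell, and ILV1, ILV2 and ILV3 did not pass, with a median of -0.08; with TPM the changes of ILV5 and ILV6 were -0.02 and -0.12. BAT1 (gene at chrVIII:517532-518713) encodes the mitochondrial branched-chain aminotransferase, which works mainly in synthesis. BAT1 had 314, 422 and 399 CPM at 40 fL, 490.1, 452 and 446 at 45 fL, 469, 451 and 558 at 50 fL and 448, 464 and 407 at 55 fL. The BAT1 values were then 539, 571 and 529 CPM at 60 fL, 477, 494 and 528 at 65 fL, 394, 517 and 563 at 70 fL and 500.0, 530.3 and 503 at 75 fL. All 75 fL libraries lay above the 40 fL ones, and BAT1 averaged 511 ± 16.7 CPM at 75 fL and 378 ± 56.6 CPM at 40 fL, a log2 change of 0.43 ± 0.12 (SE, adjusted p = 0.00559). The BAT1 change was 0.16 (adjusted p = 0.187) with library totals and 0.01 (adjusted p = 0.949) with TPM plus 1, and in TPM the libraries of 75 fL, at 379.8 to 401, overlapped those of 40 fL, at 322 to 443. BAT2 (gene at chrX:705744-706874) encodes the cytosolic enzyme, which works mainly in breakdown. BAT2 had 185, 181 and 175 CPM at 40 fL, 137, 152 and 181 at 45 fL, 111, 189 and 125 at 50 fL and 137, 98.9 and 143 at 55 fL. The BAT2 values were then 98.4, 116 and 117 CPM at 60 fL, 119.7, 113 and 129 at 65 fL, 144, 142 and 118 at 70 fL and 86.9, 138 and 107 at 75 fL. All 75 fL libraries lay below the 40 fL ones, and BAT2 averaged 111 ± 26.0 CPM at 75 fL and 180.2 ± 5.20 CPM at 40 fL, a log2 change of -0.70 ± 0.19 (SE, adjusted p = 0.0037). ILV5, encoding acetohydroxyacid reductoisomerase, had the highest mean level per length of the 40 genes, 1377 TPM over the 24 libraries, and HIS6 the lowest, 27.3 TPM. ILV5 changed by 0.41 ± 0.12 (SE, adjusted p = 0.00506), and ILV6, encoding the regulatory subunit of acetolactate synthase, by 0.31 ± 0.10 (SE, adjusted p = 0.0148), a call lost without 40 fL replicate 1 (adjusted p = 0.0894). ILV2, encoding the catalytic subunit, was lower at 50 fL than at 40 fL, with a log2 change of -0.47 ± 0.13 (SE, adjusted p = 0.00685), a call lost without 50 fL replicate 1 (adjusted p = 0.0514). ILV1, encoding threonine deaminase, was also lower there, with -0.51 ± 0.14 (SE, adjusted p = 0.00529). ILV3, encoding dihydroxyacid dehydratase, changed by -0.24 ± 0.15 (SE, adjusted p = 0.169) at 75 fL.

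Among threonine and homoserine genes HOM2, HOM6 and THR4 rose at 75 fL, and HOM3 and THR1 did not pass; the median was 0.42. HOM2 (gene at chrIV:770357-771454) encodes aspartate semialdehyde dehydrogenase. HOM2 had 116, 122 and 107 CPM at 40 fL, 205, 165 and 162 at 45 fL, 212, 157 and 234 at 50 fL and 175, 306 and 192 at 55 fL. The HOM2 values were then 249, 239.5 and 245 CPM at 60 fL, 248, 246 and 290.0 at 65 fL, 199, 302 and 303 at 70 fL and 259, 269 and 257 at 75 fL. Each library above 40 fL lay over the 3 at 40 fL, and 55 fL replicate 2 was the highest. HOM2 averaged 262 ± 6.72 CPM at 75 fL and 115 ± 7.42 CPM at 40 fL, a log2 change of 1.18 ± 0.19 (SE, adjusted p = 4.76e-05). HOM6 (gene at chrX:689445-690524) encodes homoserine dehydrogenase. HOM6 had 199, 180.3 and 196 CPM at 40 fL, 261, 234 and 185 at 45 fL, 363, 245 and 371 at 50 fL and 314, 331 and 301 at 55 fL. The HOM6 values were then 383, 337 and 349 CPM at 60 fL, 396, 340.3 and 389.5 at 65 fL, 376, 401 and 426 at 70 fL and 403, 413 and 375 at 75 fL. From 50 fL on all libraries lay above those of 40 fL, and HOM6 averaged 397 ± 19.7 CPM at 75 fL and 192 ± 10.2 CPM at 40 fL, a log2 change of 1.05 ± 0.14 (SE, adjusted p = 6.16e-06). THR4, encoding threonine synthase, changed by 0.42 ± 0.08 (SE, adjusted p = 0.000374), while with TPM its change was -0.01. HOM3, encoding the feedback-inhibited aspartate kinase that opens the pathway, changed by 0.01 ± 0.15 (SE, adjusted p = 0.949), and THR1, encoding homoserine kinase, by 0.15 ± 0.13 (SE, adjusted p = 0.322).

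**Figure D3:**
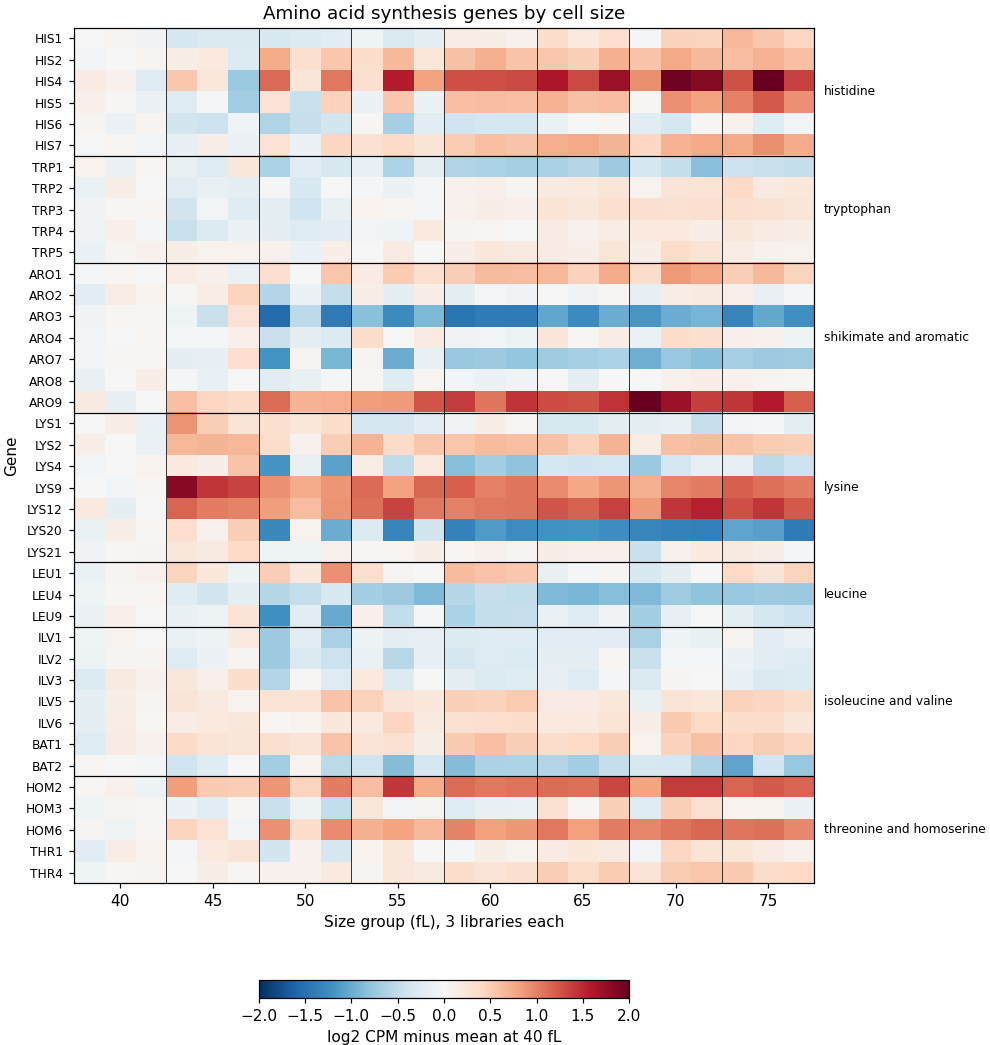
Level of the 40 genes in each of the 24 libraries, as log2 CPM with TMM scaling minus the mean of the 40 fL libraries, with libraries ordered by size from left to right and genes grouped by pathway. LYS9 is highest at 45 fL, ARO3 is low from 50 fL on, and HIS4 and ARO9 are high from 60 fL on.

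Fewer of the genes passed between later sizes than between 50 and 40 fL, and the differences between these comparisons were not tested. For 50 fL against 40 fL, 12 of the 40 genes were higher (30%, against 32.8% of all genes tested) and 13 lower (32.5%, against 24.2%), with a median of -0.13 beside 0.05 for all genes. The largest rises, as log2 changes, were 0.85 ± 0.17 (SE, adjusted p = 0.000738) for ARO9, 0.85 ± 0.34 (SE, adjusted p = 0.0412) for HIS4 and 0.85 ± 0.12 (SE, adjusted p = 4e-05) for LYS9, and the largest falls in ARO3, LEU9 and LYS4. With library totals, under which the median of all genes was -0.19, 6 genes were higher and 23 lower, where 19.0% and 39.3% of all genes were. HIS4 did not pass with library totals (adjusted p = 0.116). Nor did HIS4 pass with upper quartile factors (0.0662), limma-voom (0.0501), TPM plus 1 (0.229), only these sizes in the fit (0.0565), or without any 1 of 5 libraries of these sizes (0.0569 to 0.147). ARO9, LYS9, LYS12, HOM2 and HOM6 were higher under all 5 other scalings, and all 13 falls also held. Without 50 fL replicate 3 there were 6 higher (27.1% of all genes were) and 8 lower (15.4%). Without 50 fL replicate 1 there were 6 lower (14.4% of all genes), and without 40 fL replicate 2 there were 8 lower (20.0%). Without the libraries that stood apart 15 were higher (37.8% of all genes were) and 20 lower (32.3%). For 60 fL against 50 fL, HIS1 and TRP3 were higher (5%, against 3.98% of all genes tested) and edgeR called none lower, where 6.11% of all genes were. None were lower there by DESeq2 or limma-voom either, where 6.98% and 6.81% of all genes were, and 2 were at an unadjusted p under 0.05. Leaving out 50 fL replicate 2 or any 1 of the 60 fL libraries brought the number higher to 0, where at most 0.155% of all genes were. Leaving out the libraries that stood apart raised the number to 18, while the share of all genes called higher was then 13.5%. For 75 fL against 60 fL, HIS1 was higher (2.5%, against 2.00%), and edgeR and limma-voom called none lower, where 2.01% of all genes were. DESeq2 called 1 lower (4.33% of all genes were), and 1 was at an unadjusted p under 0.05. The HIS1 call was lost when any of 5 libraries of these sizes was left out, and without the libraries that stood apart 4 genes were higher (9.44% of all genes were) and 1 lower (12.7%). These comparisons share libraries, so their values are given side by side and no overlap between them was counted.

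By group mean, 7 of the 40 genes were highest at 40 fL, 10 at 45 fL, 3 at 60 fL, 2 at 65 fL, 12 at 70 fL and 6 at 75 fL, while 50 and 55 fL held no highest mean. The lowest mean was at 40 fL for 14 genes, at 45 fL for 5, at 50 fL for 11, at 55 fL for 1, at 60 fL for 3, at 65 fL for 2 and at 70 fL for 4. Neighbouring sizes often differed by less than the spread between replicates, so these orders are descriptive.

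The count ratio of paired enzymes differed between larger and smaller cells in 4 of 5 pairs. Other pairs of genes were not compared, and 79.6% of all genes tested differed across the 8 sizes, so the count has no background. The ratio of raw counts within a library does not depend on library scaling, and it was compared between the 12 libraries of 60 to 75 fL and the 12 of 40 to 55 fL with a two-sided permutation test of 100000 resamples, adjusted over the 5 pairs. The log2 ratio of LYS20 to LYS21 averaged -1.23 ± 0.170 in the larger cells and -0.29 ± 0.562 in the smaller cells (SD, n = 12 each), a difference of -0.94 (adjusted p = 0.000300). In TPM, which is per length, the mean ratio of LYS20 to LYS21 was 1.08 at 40 fL, 1.10 at 45 fL, 0.726 at 50 fL, 0.680 at 55 fL, 0.437 at 60 fL, 0.429 at 65 fL, 0.453 at 70 fL and 0.446 at 75 fL. LYS20 thus stood close to LYS21 at 40 and 45 fL and below it from 60 fL on, within the limit on these near-identical genes. The log2 ratio of ARO3 to ARO4 averaged -0.96 ± 0.128 in the larger cells and -0.23 ± 0.569 in the smaller cells, a difference of -0.73 (adjusted p = 0.000500). The TPM ratio of ARO3 to ARO4 was 0.528 at 75 fL and 1.23 at 40 fL, so the order of these synthases was the reverse at the 2 ends of the series. Between these ends it was 1.17 at 45 fL, 0.700 at 50 fL, 0.549 at 55 fL, 0.483 at 60 fL, 0.521 at 65 fL and 0.533 at 70 fL. The 55 fL ratio was thus already close to those of the larger cells.

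The log2 ratio of ARO8 to ARO9 averaged 2.06 ± 0.264 in the larger cells and 2.87 ± 0.484 in the smaller cells (SD, n = 12 each), a difference of -0.81 (adjusted p = 0.000300 by the permutation test). In TPM the ratio of ARO8 to ARO9 was 11.9 at 40 fL, 8.12 at 45 fL, 6.02 at 50 fL, 5.72 at 55 fL, 4.50 at 60 fL, 4.45 at 65 fL, 3.78 at 70 fL and 4.67 at 75 fL, so ARO8 was the more abundant transcript throughout. The log2 ratio of BAT1 to BAT2 averaged 2.11 ± 0.287 in the larger cells and 1.57 ± 0.449 in the smaller cells, a difference of 0.55 (adjusted p = 0.00317 by the permutation test). The TPM ratio of BAT1 to BAT2 was 4.56 at 75 fL and 2.01 at 40 fL. Between these ends it was 2.87 at 45 fL, 3.53 at 50 fL, 3.44 at 55 fL, 4.76 at 60 fL, 3.97 at 65 fL and 3.56 at 70 fL. The ratios at 50 and 55 fL were thus close to that at 70 fL. LEU4 to LEU9 averaged 1.54 ± 0.320 in the larger cells and 1.82 ± 0.476 in the smaller cells, a difference of -0.28 that did not pass (adjusted p = 0.102 by the permutation test). It passed without 55 fL replicate 1 (0.0470) or 55 fL replicate 3 (0.0389). Between the 3 libraries of 75 fL and the 3 of 40 fL the log2 ratios differed by -1.28 for LYS20 to LYS21, -0.42 for LEU4 to LEU9, -1.23 for ARO3 to ARO4, -1.34 for ARO8 to ARO9 and 1.17 for BAT1 to BAT2. In each pair these libraries did not overlap, and the exact permutation p was 0.1, the smallest that 3 against 3 allows. The paired genes other than LYS20 and LYS21 were 49.4% to 78.4% identical, and at most 1.96% of their 30-base words occur elsewhere in the genome.

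**Figure D4:**
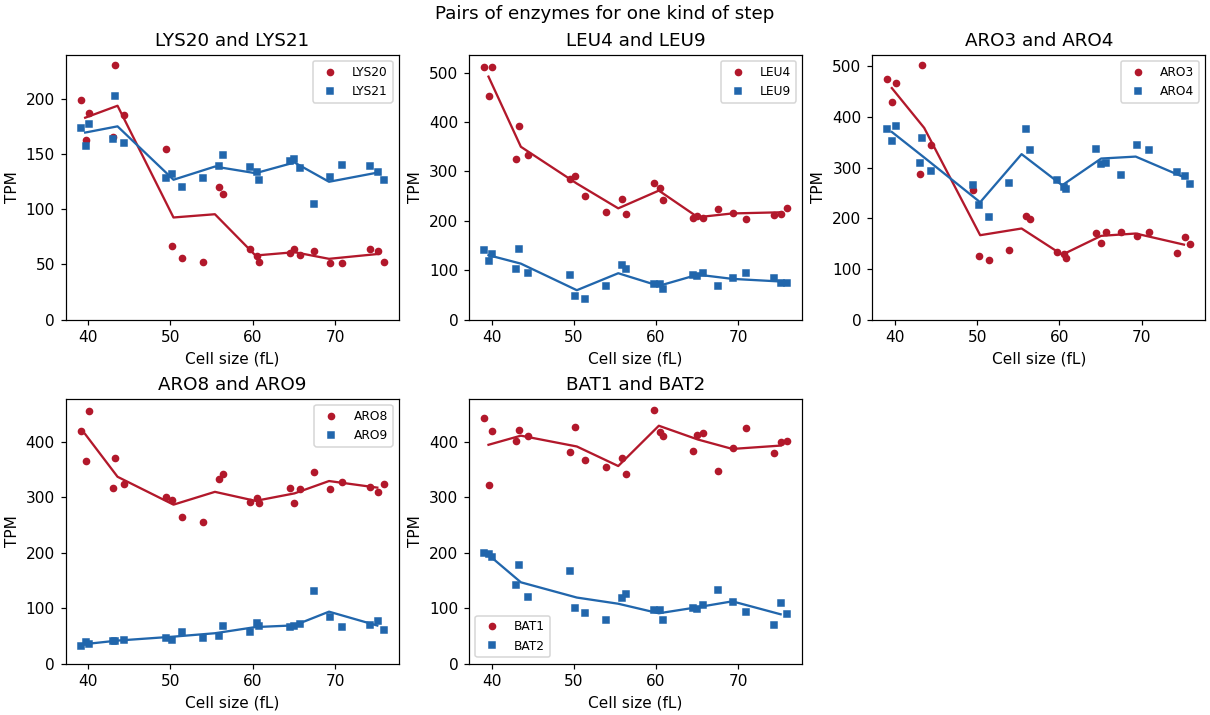
TPM of the genes of 5 isozyme pairs against the measured cell size in fL; each point is 1 library. The LYS20 and ARO3 points lie below those of LYS21 and ARO4 at 75 fL. At 40 fL the ARO3 points lie above those of ARO4, while the LYS20 and LYS21 points overlap.

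Regulators of these pathways moved in both directions. Of 7 regulator genes, PHO2 and ARO80 rose at 75 fL (28.6%, against 31.0% of all genes tested), GCN2, LEU3 and BAS1 fell (42.9%, against 30.2%), and GCN4 and LYS14 did not pass. The rises did not pass with library totals or TPM, under which GCN2, LEU3, BAS1 and LYS14 were lower. The GCN4 change was -0.01 (adjusted p = 0.905) with library totals and -0.18 (adjusted p = 0.0552) with TPM plus 1. GCN4 averaged 865 ± 36.8 CPM at 75 fL and 722 ± 30.2 CPM at 40 fL (SD, n = 3 each), a log2 change of 0.26 ± 0.12 (SE, adjusted p = 0.0578); its activity is known to be set mainly by translation, which RNA counts do not show. GCN2, encoding the kinase that senses uncharged tRNA, changed by -0.29 ± 0.08 (SE, adjusted p = 0.00378), and LEU3 by -0.34 ± 0.12 (SE, adjusted p = 0.018). BAS1, encoding a factor that acts with Pho2 on histidine and purine genes, changed by -0.87 ± 0.28 (SE, adjusted p = 0.0109), PHO2 by 0.47 ± 0.10 (SE, adjusted p = 0.000619) and ARO80 by 0.42 ± 0.17 (SE, adjusted p = 0.0391). With TPM plus 1 the PHO2 change was 0.04 (adjusted p = 0.759) and that of ARO80 -0.0067 (adjusted p = 0.969). Of 8 further enzymes and carriers, LEU2 was at 0 counts and 7 were tested. HIS3, ARO10 and AAT2 rose (42.9%, against 31.0% of all genes tested), none fell (0%, against 30.2%), and TYR1, PHA2, LYS5 and OAC1 did not pass. ARO10 and AAT2 were also higher under the 5 other scalings, while HIS3 was not with upper quartile factors, library totals or TPM. TYR1, PHA2, LYS5 and OAC1 were lower with library totals and with TPM, beside the shares of all genes given above for these scalings. ARO10, encoding the phenylpyruvate decarboxylase of the Ehrlich pathway, averaged 142 ± 34.1 CPM at 75 fL and 42.9 ± 8.85 CPM at 40 fL, a log2 change of 1.72 ± 0.24 (SE, adjusted p = 1.14e-05). AAT2, encoding the cytosolic aspartate aminotransferase, changed by 0.83 ± 0.14 (SE, adjusted p = 7.53e-05).

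Among 17 genes for other amino acids, 8 rose at 75 fL against 40 fL (47.1%, against 31.0% of all genes tested), 4 fell (23.5%, against 30.2%) and 5 did not pass, with a median log2 change of 0.21. With library totals 8 were higher and 6 lower, and with TPM 7 were higher, without IDP1, and 7 lower. Those that rose were SER1, SER2, SER33, PRO3, GLN1, GDH1, GLT1 and IDP1, and those that fell were GLY1, ASN2, ALT1 and GDH3. The glutamate dehydrogenase genes went apart: GDH1 changed by 1.59 ± 0.18 (SE, adjusted p = 1.56e-06) and GDH3, encoding the isoform used on poor carbon sources, by -1.85 ± 0.28 (SE, adjusted p = 2.46e-05). GDH1 averaged 906 ± 133 CPM at 75 fL and 299.9 ± 36.4 CPM at 40 fL. PRO3, encoding the last enzyme of proline synthesis, changed by 1.48 ± 0.18 (SE, adjusted p = 3.21e-06), and GLY1, encoding threonine aldolase, by -1.24 ± 0.27 (SE, adjusted p = 0.000879).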

How the data were processed

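The deposited count table holds raw counts per feature, made by the authors with featureCounts of the Subread package on genome build R64, per the submitters' processing notes. The deposited TPM table holds the same counts scaled for feature length by the authors. TPM matched counts over a fixed length within 6.2e-05% for well-covered genes. The sources used here give no aligner, strand setting, rule for reads that map to several places or lane per library. The 40 genes, the gene lists and the motifs were chosen with earlier results of these data known.

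Libraries were grouped by the closest step of 5 fL, midway sizes going up, and replicate numbers follow record order. No replicate pair was a copy of another, with a chi-square per degree of freedom of 9.38 to 268. Counts of 24 libraries were fitted together by the quasi-likelihood test of edgeR (version 4.0.16, under R 4.3.3), robust, with TMM factors and filterByExpr, leaving 6402 genes and a common biological coefficient of variation of 0.179. The test was checked only on simulated data in which few genes changed, equally up and down, with the same spread for every gene. That check does not cover the broad changes and the dependence on scaling seen here. SE is the absolute log2 change over the square root of F. Genes given in every library are the 2 of each pathway with the widest range of group means and both genes of each isozyme pair. Alternatives used DESeq2 1.42.0, limma 3.58.1 (limma-voom, and TPM plus 1 or 0.1), other scalings and filters, and libraries left out. P-values of the fits measure the spread between these pools. Those of the isozyme ratios come from shuffling libraries of all sizes as if alike, so their spread also holds differences between sizes.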

Additional observations from a re-analysis of the deposited data

How the results depend on the processing

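No paired analysis was possible because the labels give no replicate numbers, so replicates numbered in record order pair nothing. The cause of the shifts below was not tested. Library totals gave 10 genes higher and 14 lower at 75 fL against 40 fL, 6 and 23 at 50 fL against 40 fL, and 6 lower at 45 fL against 40 fL. Of all genes tested, 19.1% were then higher and 45.9% lower at 75 fL, 19.0% and 39.3% at 50 fL, and 9.15% lower at 45 fL. TPM plus 1 and TPM plus 0.1 each gave 8 higher and 19 lower at 75 fL, 5 and 25 at 50 fL, and 3 and 6 at 45 fL, all against 40 fL, and TPM plus 0.1 gave 1 higher at 60 fL against 50 fL. In the same order the shares of all genes against 40 fL with TPM plus 1 were 14.6% and 55%, 13.8% and 48.3%, and 4.28% and 10.4%. With TPM plus 0.1 they were 14.6% and 54.7%, 13.9% and 47.9%, and 4.23% and 9.39%, with 3.92% higher at 60 fL against 50 fL. Without the libraries that stood apart there were 10 lower at 75 fL (34.6% of all genes were) and 20 lower at 50 fL (32.3%) against 40 fL, and 18 higher at 60 fL against 50 fL (13.5%). There were then 4 higher (9.44% of all genes) and 1 lower (12.7%) at 75 fL against 60 fL, and 12 lower at 45 fL against 40 fL (20.7%). RLE factors gave 4 (5.23% of all genes were) and DESeq2 9 (9.83%) higher at 60 fL against 50 fL. DESeq2 gave 1 lower at 75 fL against 60 fL (4.33% of all genes) and 4 lower at 45 fL against 40 fL (4.98%), and upper quartile factors also 4 there (5.84%). Without the filter 0 were higher at 75 fL against 60 fL, where 1.48% of all genes were. Fits of only the 2 sizes compared gave 6 higher at 50 fL against 40 fL (23.3% of all genes were) and 0 higher at 60 fL against 50 fL (0.273%). They gave 3 higher (7.09% of all genes) and 1 lower (11.0%) at 75 fL against 60 fL, and 0 lower at 45 fL against 40 fL (2.00%).

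With each library left out in turn, the genes that differed across the 8 sizes numbered 27 to 38, and the share of all genes was not counted there. Those higher and lower numbered 16 to 19 and 5 to 6 at 75 fL against 40 fL, 6 to 14 and 6 to 16 at 50 fL against 40 fL, 0 to 4 and 0 to 1 at 60 fL against 50 fL, 0 to 1 and 0 to 0 at 75 fL against 60 fL, and 4 to 7 and 0 to 4 at 45 fL against 40 fL. In the same order the shares of all genes were 27.4% to 31.7% and 25.5% to 31.7%, 26.2% to 34.2% and 14.4% to 29.7%, and 0% to 5.63% and 0.0155% to 10.8%. For the last 2 comparisons they were 0.683% to 3.28% and 0.559% to 3.96%, and 5.20% to 14.7% and 1.31% to 3.92%. The isozyme log2 differences ran from -1.04 to -0.90 for LYS20 to LYS21, -0.35 to -0.21 for LEU4 to LEU9, -0.80 to -0.66 for ARO3 to ARO4, -0.87 to -0.74 for ARO8 to ARO9 and 0.47 to 0.61 for BAT1 to BAT2. With the 75 and 40 fL libraries alone they were -1.28 for LYS20 to LYS21, -1.23 for ARO3 to ARO4, -1.34 for ARO8 to ARO9 and 1.17 for BAT1 to BAT2, where p cannot pass.

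Changes at 75 fL against 40 fL that turned sign were as follows. With library totals they were -0.0098 for TRP2, -0.10 for TRP4, -0.17 for TRP5, -0.23 for ARO4, -0.22 for ARO8, -0.18 for LYS21, -0.26 for HOM3 and -0.12 for THR1. With TPM plus 1 they were -0.17 for TRP2, -0.15 for TRP3, -0.26 for TRP4, -0.33 for TRP5, -0.40 for ARO4, -0.38 for ARO8, -0.34 for LYS21, -0.069 for LEU1, -0.020 for ILV5, -0.12 for ILV6, -0.42 for HOM3, -0.27 for THR1 and -0.012 for THR4. With TPM plus 0.1 they were the same to this precision for 10 of these genes, and -0.35 for LYS21, -0.43 for HOM3 and -0.28 for THR1. Upper quartile factors gave -0.0037 for ARO4 and -0.032 for HOM3. Without the libraries that stood apart ARO8 was at -0.018 and HOM3 at -0.030. With each library left out in turn, ARO8 ran from -0.015 to 0.12, HOM3 from -0.027 to 0.075, ARO2 from -0.13 to 0.047 and HIS6 from -0.15 to 0.013. None of these genes had passed at 75 fL except TRP2, TRP3, LEU1, ILV5, ILV6 and THR4.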
